A study of Mus musculus with 6 samples.

Results

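A set of 10 hepatocyte genes of the ATP-binding cassette (ABC) transporter family was examined in primary mouse hepatocytes stimulated with bone morphogenetic protein 2 (BMP2). They were taken by gene symbol and were Abcb4, Abcb11, Abcb1a, Abcb1b, Abcc2, Abcc3, Abcc4, Abcg2, Abcg5 and Abcg8, 10 of 21115 probe sets in the array's table. All 10 were measured and none was removed by a filter. The choice sets Abcb4 against the others in this same comparison, with earlier results of it known, so the differences between BMP2 and control samples of these 10 genes are given as a description, without p-values.

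ABC transporters use ATP to move lipids, bile constituents and drugs across membranes. In the liver the canalicular members face the bile canaliculus and build bile from phospholipid, bile salts, sterols and conjugated anions, while the basolateral members return bile salts and conjugates to the blood. Abcb4 supplies the phosphatidylcholine that shields the biliary epithelium from bile salts, and its loss causes cholestatic liver injury in mice and humans.

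In 3 samples, hepatocytes of C57BL/6 mice were exposed for 24 hours to 50 ng/ml of recombinant BMP2, and 3 control samples had no BMP2 added. The hepatocytes came from 3 mice, were isolated, plated on collagen in medium with serum and dexamethasone and then moved to serum-free medium, and this culture history was shared by both groups. The age and sex of the mice were not in the labels used here, and whether the controls received the acid in which BMP2 was dissolved was not stated. The values are log2 expression values as the authors deposited them, so a difference of 1 is a 2-fold change.

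Expression values ran from 6.35 to 14.02, and the sample medians from 6.80 to 6.81. Levels under 7 were taken as near the array's floor, where changes are compressed. This was the case for the control mean of 58% of all probe sets. The samples of replicate 3 stood apart on the second principal component (21.5% of the variance), at -9.17 for BMP2 and -6.45 for control, against 2.94 to 4.83 for the other samples. Of 10 hepatocyte markers 8 had control means of 7 or more, with Alb at 13.71 to 13.83 in BMP2 samples and 13.79 to 13.84 in control samples. Control means were under 7 for 7 of 8 endothelial, 6 of 7 Kupffer cell, 5 of 7 stellate cell, 5 of 5 leukocyte and 4 of 6 measured cholangiocyte markers. Krt19 and Sox9 were the cholangiocyte markers above that level. Krt19, a keratin of bile duct cells, lay between 8.13 and 8.40 in BMP2 samples and between 8.68 and 8.85 in control samples, with a difference of -0.51 ± 0.08 (SE) that did not pass (limma adjusted p = 0.0725). Sox9, a bile duct transcription factor, lay between 10.29 and 10.46 in BMP2 samples and between 9.73 and 10.07 in control samples, with a difference of 0.46 ± 0.10 (SE; limma adjusted p = 0.144 without and 0.0389 with the replicate number as a block). The summed level of the 6 measured cholangiocyte markers was 44.9 to 45.1 in BMP2 samples and 44.7 to 45.3 in control samples, and that of the 7 stellate markers 48.2 to 48.6 in BMP2 samples and 48.6 to 49.2 in control samples. The sums were 54.0 to 54.4 in BMP2 samples and 53.9 to 54.1 in control samples for endothelial markers, 46.8 to 47.2 in BMP2 samples and 47.0 to 47.7 in control samples for Kupffer cell markers, and 32.9 in BMP2 samples and 32.8 to 32.9 in control samples for leukocyte markers. For hepatocyte markers they were 107.8 to 109.6 in BMP2 samples and 105.5 to 106.9 in control samples. The hepatocyte list includes Hnf4a, described below, which differed by 0.82 (limma adjusted p = 0.00968). Cd68, the Kupffer cell marker with a control mean above 7, differed by -0.34 (limma adjusted p = 0.561). Acta2, the actin of activated stellate cells, differed by -0.49 (limma adjusted p = 0.197), and Ttr, the hepatocyte product transthyretin, by 0.68 (limma adjusted p = 0.0725 without and 0.0166 with the block). Fga, a fibrinogen chain made by hepatocytes, differed by 0.29 (limma adjusted p = 0.223 without and 0.0170 with the block). The part of these cells in the transporter values was not tested. In these bulk samples fewer cells of a type and less RNA per cell cannot be told apart.

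Abcb4, the canalicular phosphatidylcholine translocase (also called MDR2), was the member that differed most. Its level was 10.28, 10.55 and 9.92 in BMP2 replicates 1, 2 and 3, against 8.29, 8.71 and 8.02 in control replicates 1, 2 and 3. The lowest BMP2 sample lay above the highest control sample. The means were 10.25 ± 0.32 in BMP2 samples and 8.34 ± 0.35 in control samples (SD, n = 3 each), a difference of 1.91 ± 0.24 (SE) or 3.76-fold. Within the pairs of equal replicate number the differences were 1.99, 1.84 and 1.90, a narrower range than the 0.63 between BMP2 samples or the 0.69 between control samples. Replicate 2 was highest and replicate 3 lowest in both groups, so the replicate numbers kept their order.

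Abcc3, the basolateral exporter of glucuronides and bile salts (MRP3), came next. Its level was 11.75, 11.91 and 11.77 in BMP2 replicates 1, 2 and 3, against 11.10, 10.97 and 10.66 in control replicates 1, 2 and 3. These groups did not overlap either. The means were 11.81 ± 0.09 in BMP2 samples and 10.91 ± 0.22 in control samples (SD, n = 3 each), with a difference of 0.90 ± 0.12 (SE), or 1.87-fold. The pairs of replicates 1, 2 and 3 differed by 0.66, 0.95 and 1.11. Without both samples of replicate 3, a setting added after the data were seen, the difference was 0.80 for Abcc3 and 1.92 for Abcb4.

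Of the 10 members, 1 passed an adjusted p of 0.05 in limma over all probe sets, Abcb4, against 1.19% of all probe sets in either direction 0.616% higher and 0.573% lower. Abcc3 had the second smallest p of the members and did not pass. Because the members were chosen on this comparison, nothing is read from that count or that order. The same holds for the members' calls and SEs under the alternatives, which are given as description only. The Abcb4 call was absent in each of 6 fits with 1 sample left out, in which the difference stayed between 1.75 and 2.10, and absent without replicate 3. With the replicate number as a block Abcb4 was the member that passed (3.32% of all probe sets, 1.68% higher and 1.64% lower), and the SE of that blocked fit was 0.03 for Abcb4 and 0.10 for Abcc3. Abcc3 passed beside Abcb4 when limma's variance prior followed intensity, with probe sets above the median level and with named probe sets.

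**Figure D1:**
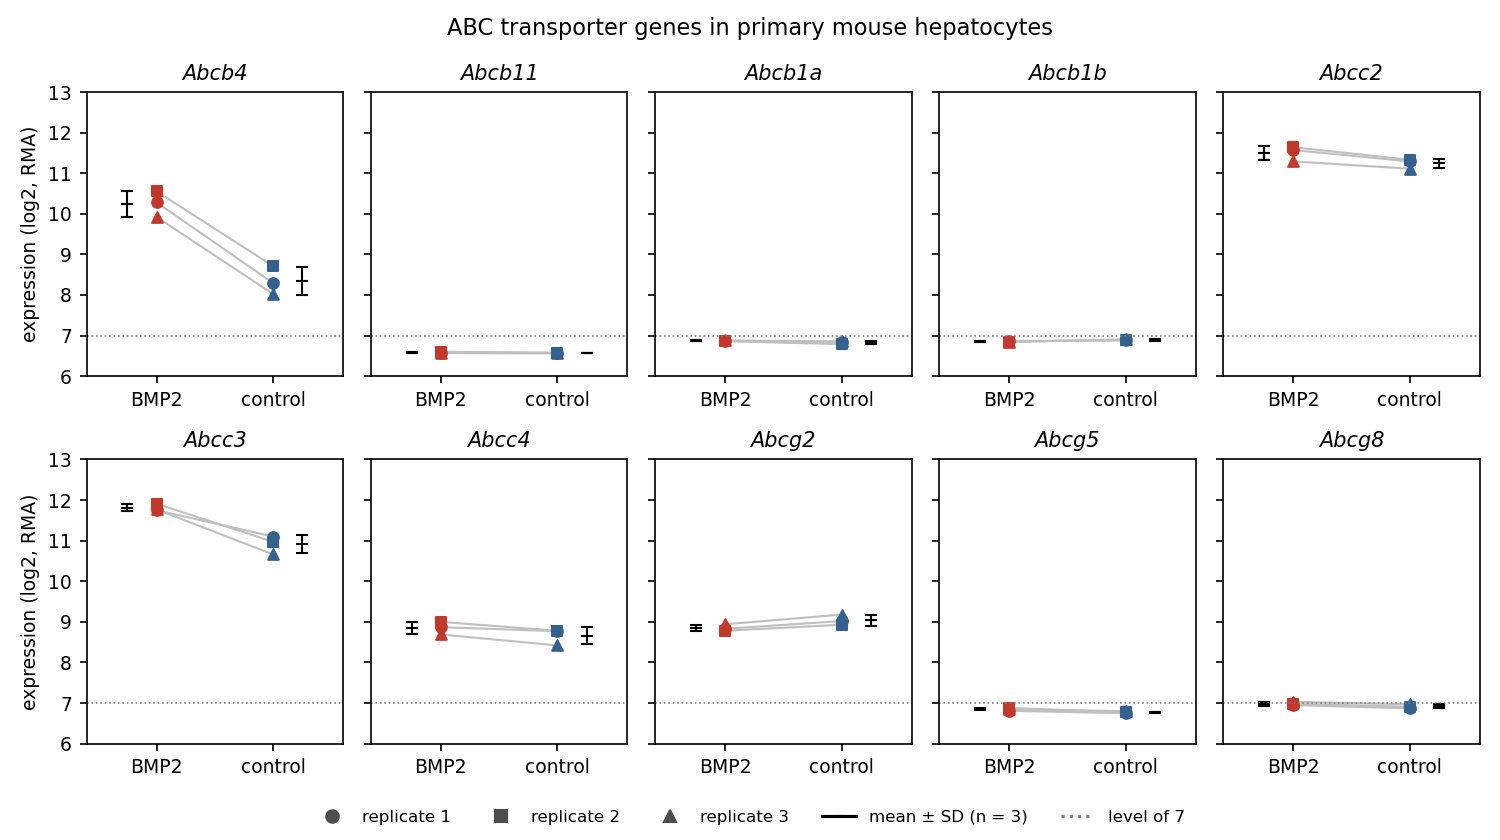
Expression (log2) of the 10 transporter genes in each sample, BMP2 left and control right, with grey lines joining samples of the same replicate number, bars for mean ± SD (n = 3) and a dotted line at 7. Abcb4 lies between 9.92 and 10.55 in BMP2 samples and between 8.02 and 8.71 in control samples, while 5 genes stay at or near the dotted line in both groups.

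The other canalicular exporters with levels well above the floor differed far less. Abcc2, the canalicular exporter of bilirubin and other conjugates (MRP2), stood at 11.57, 11.64 and 11.29 in BMP2 replicates 1, 2 and 3, against 11.29, 11.33 and 11.11 in control replicates 1, 2 and 3. The groups overlapped only through replicate 3, whose BMP2 sample lay level with the control sample of replicate 1 and below that of replicate 2. The difference was 0.26 ± 0.11 (SE), and the BMP2 sample was the higher in every pair, by 0.28, 0.31 and 0.19. Abcg2, an exporter of sulfate conjugates and drugs (BCRP), went the other way, at 8.83, 8.78 and 8.94 in BMP2 replicates 1, 2 and 3, against 9.02, 8.93 and 9.18 in control replicates 1, 2 and 3. BMP2 samples were lower in each pair, by differences of -0.18, -0.15 and -0.24, although the groups overlapped through BMP2 replicate 3. The overall difference was -0.19 ± 0.08 (SE), that is 1.14-fold lower with BMP2, and -0.12 without control replicate 3.

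Abcc4, the basolateral exporter of cyclic nucleotides and bile salts (MRP4), stood at 8.87, 9 and 8.69 in BMP2 replicates 1, 2 and 3, against 8.77, 8.78 and 8.42 in control replicates 1, 2 and 3. The groups overlapped, and the difference of 0.20 ± 0.13 (SE) was smaller than the SD of 0.21 between control samples. Within pairs it was 0.10, 0.22 and 0.28. With 1 sample left out it lay between 0.08, without control replicate 3, and 0.28, without BMP2 replicate 3.

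**Figure D2:**
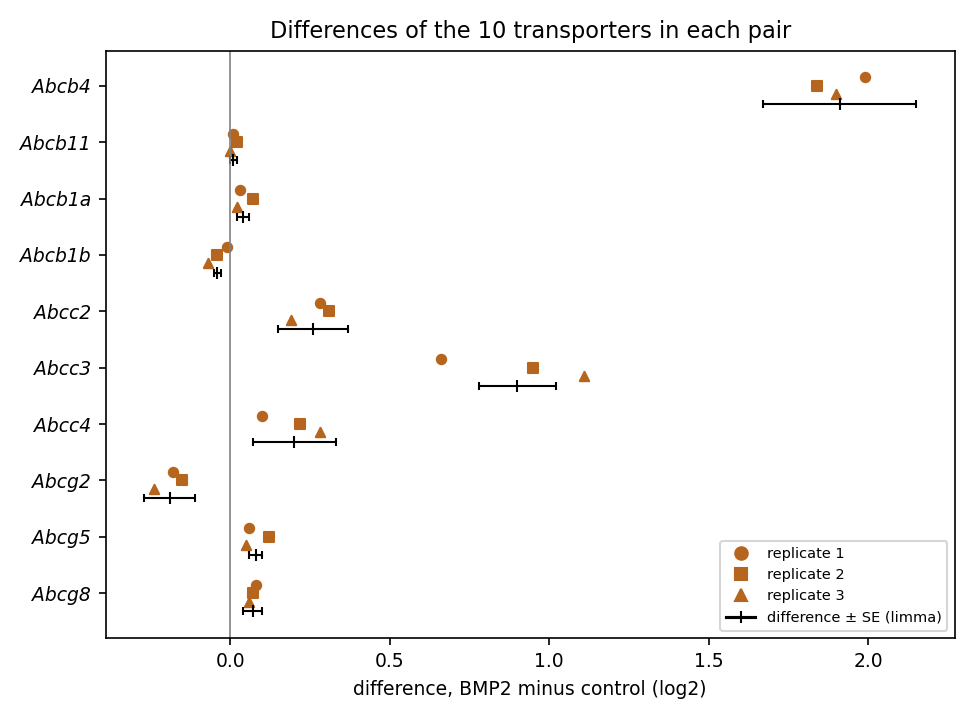
Difference of BMP2 minus control (log2, horizontal axis) for each transporter gene, with 1 symbol per replicate number and a black bar for the difference ± SE from limma. Abcb4 lies between 1.84 and 1.99 in the 3 pairs, Abcc3 between 0.66 and 1.11, and the other 8 genes between -0.24 and 0.31.

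The remaining 5 members, Abcb11, Abcb1a, Abcb1b, Abcg5 and Abcg8, had means under 7 in both groups, so a small difference does not show that they were unchanged. Abcb11, the bile salt export pump, was at 6.57, 6.60 and 6.57 in BMP2 replicates 1, 2 and 3, against 6.56, 6.58 and 6.57 in control replicates 1, 2 and 3. These values overlap and lie close to the lowest value on the array. The multidrug exporters (P-glycoproteins) Abcb1a and Abcb1b differed by 0.04 ± 0.02 and -0.04 ± 0.01 (SE). Abcb1a lay between 6.86 and 6.88 in BMP2 samples and between 6.79 and 6.86 in control samples, and Abcb1b between 6.84 and 6.87 in BMP2 samples and between 6.88 and 6.91 in control samples. Abcb1a and Abcb1b are close paralogues, and the array's probe sequences were not used here, so signal shared between them was not assessed.

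Abcg5 and Abcg8 encode the subunits of a heterodimer that exports sterols into bile. Abcg5 was at 6.81, 6.88 and 6.85 in BMP2 replicates 1, 2 and 3, against 6.75, 6.77 and 6.80 in control replicates 1, 2 and 3. Abcg8 was at 6.95, 6.98 and 7.03 in BMP2 replicates 1, 2 and 3, against 6.87, 6.91 and 6.97 in control replicates 1, 2 and 3. Both were slightly higher with BMP2 in each pair, by 0.08 ± 0.02 for Abcg5 and 0.07 ± 0.03 for Abcg8 (SE). Without 1 sample the Abcg8 difference lay between 0.04 and 0.09. Over the 10 members, all BMP2 samples lay above all control samples for 4 (Abcb4, Abcc3, Abcb1a and Abcg5), against 8.42% of all probe sets, and below them for 1 (Abcb1b), against 8.25%. BMP2 was the higher in all 3 pairs for 8 members, against 19.1% of all probe sets, and these shares too are read no further. The median difference of the 9 members other than Abcb4 was 0.07, against 0 for all probe sets.

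The genes Abcg5 and Abcg8 lie head to head. In RefSeq's table on GRCm38.p6 their start sites were 110 bases apart on chromosome 17, and the 300-base windows around them (250 bases before to 50 after the start) shared 209 bases. The window of Abcg8 is printed at chr17:84682871-84683170 on the plus strand, with capitals for GGAGCC, a SMAD-binding sequence of BMP-responsive genes, on either strand (GGCTCC on the other).
Abcg8: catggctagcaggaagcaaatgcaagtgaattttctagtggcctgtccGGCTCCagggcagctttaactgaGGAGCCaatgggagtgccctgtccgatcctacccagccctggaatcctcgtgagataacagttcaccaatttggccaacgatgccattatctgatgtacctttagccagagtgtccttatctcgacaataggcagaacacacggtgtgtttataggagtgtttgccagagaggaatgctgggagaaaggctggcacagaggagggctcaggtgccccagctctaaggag
GGAGCC occurred 2 times in this window, at bases 49 to 54 and 72 to 77, before the stretch shared with Abcg5, whose window held 0. GGAGCC was found in 30.8% of 32851 promoter windows of the same length. Abcg8 had a second window, whose start site lay 6709 bases from that of Abcg5. This second window shared 0 bases with the Abcg5 window and held 0 GGAGCC.

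Variation between the replicate numbers did not use the contrast on which the members were chosen. It was tested with limma's moderated F test with the group in the model. Abcb4 averaged 9.28 in replicate 1, 9.63 in replicate 2 and 8.97 in replicate 3 over both groups, a range of 0.66. Abcc2 averaged 11.43, 11.49 and 11.20 in replicates 1, 2 and 3, and Abcc4 averaged 8.82, 8.89 and 8.55. All 3 genes had their lowest mean in replicate 3 and their highest in replicate 2. Abcg2 had the opposite order, with 8.92, 8.85 and 9.06 in replicates 1, 2 and 3. Abcg8, near the floor, averaged 6.91, 6.95 and 7 in replicates 1, 2 and 3. Replicate 3 was also the highest for Abcb1a, Abcb1b and Abcg5, whose means spanned at most 0.04.

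After adjustment over all probe sets, 0 of the 10 members passed this limma F test (adjusted p between 0.114 for Abcb4 and 0.979 for Abcb1b), and 6 of all 21115 did (0.0284%). At an unadjusted p under 0.05, 5 of 10 members passed (Abcb4, Abcc2, Abcc4, Abcg2 and Abcg8), against 14.8% of all probe sets. Those 5 share the same 6 samples and are not independent of each other. Abcc3 was not among them, with means of 11.43, 11.44 and 11.22 in replicates 1, 2 and 3 (limma adjusted p = 0.624).

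**Figure D3:**
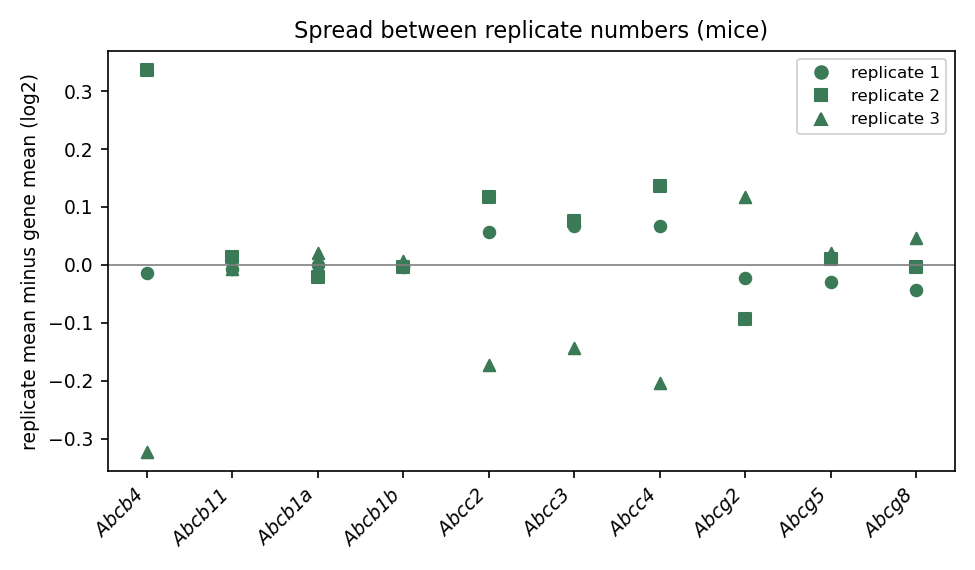
Mean of the BMP2 and control sample of each replicate number, relative to the gene's mean over all samples (log2, vertical axis), for the 10 transporter genes. Replicate 3 lies lowest for Abcb4, Abcc2, Abcc3 and Abcc4 and highest for Abcg2, Abcg8, Abcb1a, Abcb1b and Abcg5, and Abcb4 has the widest range, 0.66.

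In the mouse Abcb4 lies in a run with its paralogues Abcb1a and Abcb1b on chromosome 5. Windows around their start sites are printed because these adjacent paralogues had differences of 1.91, 0.04 and -0.04. Abcb1a and Abcb1b were near the floor, so their small differences do not show that they were unchanged. The sequences are from RefSeq on GRCm38.p6, plus strand, at chr5:8893471-8893770 for Abcb4, chr5:8566841-8567140 for Abcb1a and chr5:8797897-8798196 for Abcb1b, with the same use of capitals.
Abcb4: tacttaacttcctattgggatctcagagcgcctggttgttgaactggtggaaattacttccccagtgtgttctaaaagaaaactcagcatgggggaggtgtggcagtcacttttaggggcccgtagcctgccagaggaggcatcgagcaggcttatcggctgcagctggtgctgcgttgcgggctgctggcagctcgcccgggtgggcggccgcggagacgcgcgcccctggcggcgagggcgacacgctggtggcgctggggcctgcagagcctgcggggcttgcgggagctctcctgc
Abcb1a: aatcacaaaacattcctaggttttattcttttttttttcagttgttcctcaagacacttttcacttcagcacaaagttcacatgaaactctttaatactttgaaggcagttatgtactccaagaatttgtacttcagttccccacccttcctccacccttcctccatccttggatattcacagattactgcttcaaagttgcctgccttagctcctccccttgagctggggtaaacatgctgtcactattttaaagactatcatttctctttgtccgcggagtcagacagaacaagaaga
Abcb1b: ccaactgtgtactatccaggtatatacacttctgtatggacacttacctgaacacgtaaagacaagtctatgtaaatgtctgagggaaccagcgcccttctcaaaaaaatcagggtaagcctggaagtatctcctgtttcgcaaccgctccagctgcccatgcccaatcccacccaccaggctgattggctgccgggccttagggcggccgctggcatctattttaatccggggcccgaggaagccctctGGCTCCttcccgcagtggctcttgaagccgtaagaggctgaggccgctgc
The Abcb4 window held 64.0% G and C, against 40.3% for Abcb1a and 55.0% for Abcb1b.

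The 4 motifs were searched on both strands of the windows of 9 members (13 windows, since Abcg2, Abcc4 and Abcg8 have several). They were GGCGCC and GGAGCC, GC-rich sequences bound by BMP-activated SMADs, GTCTAGAC, the palindromic SMAD box, and the DR-1 element of nuclear receptor dimers, AGGTCA repeated with 1 base between. The matches in these windows did not overlap each other. The Abcb4 and Abcb1a windows held none of the 4. The Abcb1b window held 1 GGAGCC, which began at the start site. Of the 9 members 4 had any match, Abcb1b, Abcg8, Abcg2 and Abcc4. Among the 3 windows of Abcg2 1 held 1 GGCGCC and 1 GGAGCC, and among the 2 windows of Abcc4 1 held 1 GGCGCC and 3 GGAGCC. Over all windows GGCGCC was in 11.9%, GTCTAGAC in 0.213% and DR-1 in 0.0396%. A missing match says only that these letters are not in the window.

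Genes beside the run were examined next. Of 10 neighbouring protein-coding genes, 5 on each side, 0 passed in limma (adjusted p between 0.0849 and 1), against 1.19% of all probe sets, and 2 had an unadjusted p under 0.05, against 12.5%. Crot, which follows Abcb4 and encodes a peroxisomal carnitine acyltransferase, had levels of 11.82, 11.76 and 11.52 in BMP2 replicates 1, 2 and 3, against 11.66, 11.70 and 11.60 in control replicates 1, 2 and 3. Its groups overlapped, and it differed by 0.05 ± 0.08 (SE; limma adjusted p = 0.947). Tmem243 and Dmtf1, the next genes along, differed by 0.06 ± 0.15 and 0.02 ± 0.07 (SE). On the other side of the run Sri, the calcium-binding protein sorcin, differed by -0.16 ± 0.03 (SE; limma adjusted p = 0.0849), and Dbf4, a regulator of DNA replication, by -0.08 ± 0.03. Slc25a40 differed by 0.04 ± 0.02. Adam22, Rundc3b, Elapor2 and Grm3 had levels under 7 in every sample.

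**Figure D4:**
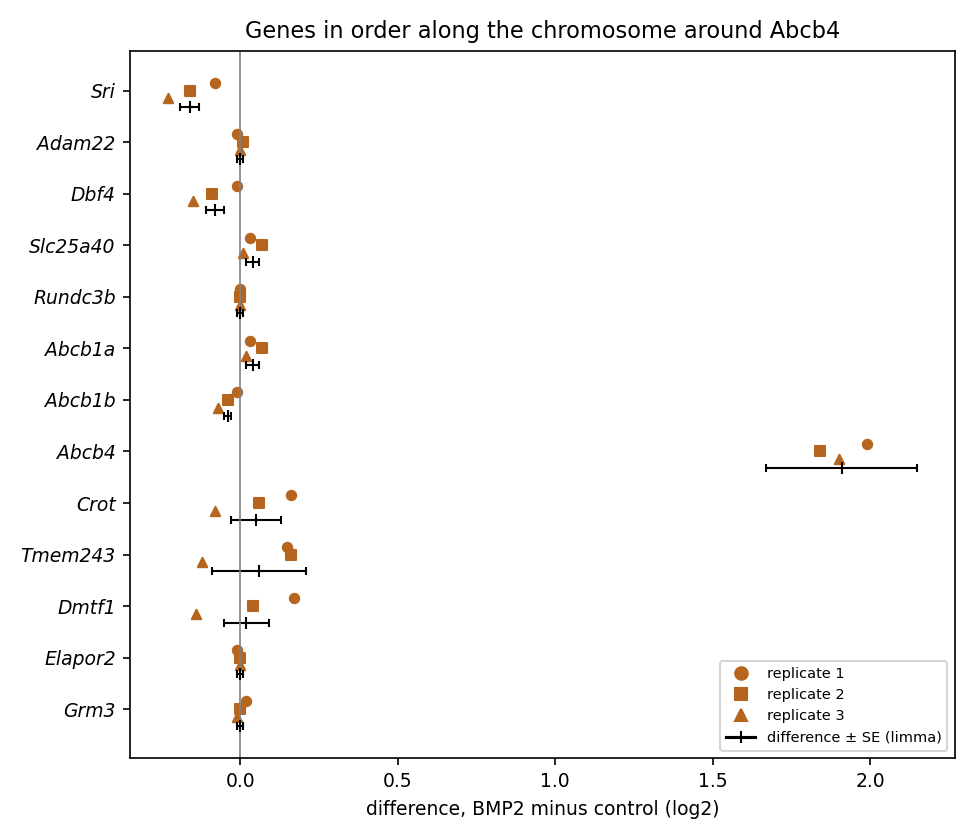
Difference of BMP2 minus control (log2, horizontal axis) for Abcb1a, Abcb1b, Abcb4 and the 5 protein-coding genes on each side, listed from top to bottom in their order along chromosome 5, with 1 symbol per replicate number and black bars for the difference ± SE. Abcb4 stands at 1.84 to 1.99, and the 10 neighbouring genes have overall differences between -0.16 and 0.06.

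Outside the 10 members the table held 38 other genes of the ABC family, of which 23 had control means under 7. Of these 38, 0 passed in limma over all probe sets, 9 had an unadjusted p under 0.05 (12.5% of all probe sets did), and their median difference was 0. Their differences lay between -0.29 and 0.64, below those of Abcb4 and Abcc3. The smallest p belonged to Abca5, a lysosomal lipid transporter, at 9.24, 9.20 and 8.98 in BMP2 replicates 1, 2 and 3, against 8.58, 8.54 and 8.38 in control replicates 1, 2 and 3. Its groups did not overlap, and it differed by 0.64 ± 0.09 (SE; limma adjusted p = 0.0522, and 0.0123 with the replicate block). Abcb6, a porphyrin transporter, differed by 0.43 ± 0.14 (SE; limma adjusted p = 0.3, and 0.0428 with the replicate block). Abcc1, a basolateral conjugate exporter (MRP1), differed by -0.13 ± 0.02 (limma adjusted p = 0.100), near the floor. Abcc12 differed by 0.19 ± 0.04 (limma adjusted p = 0.110).

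**Figure D5:**
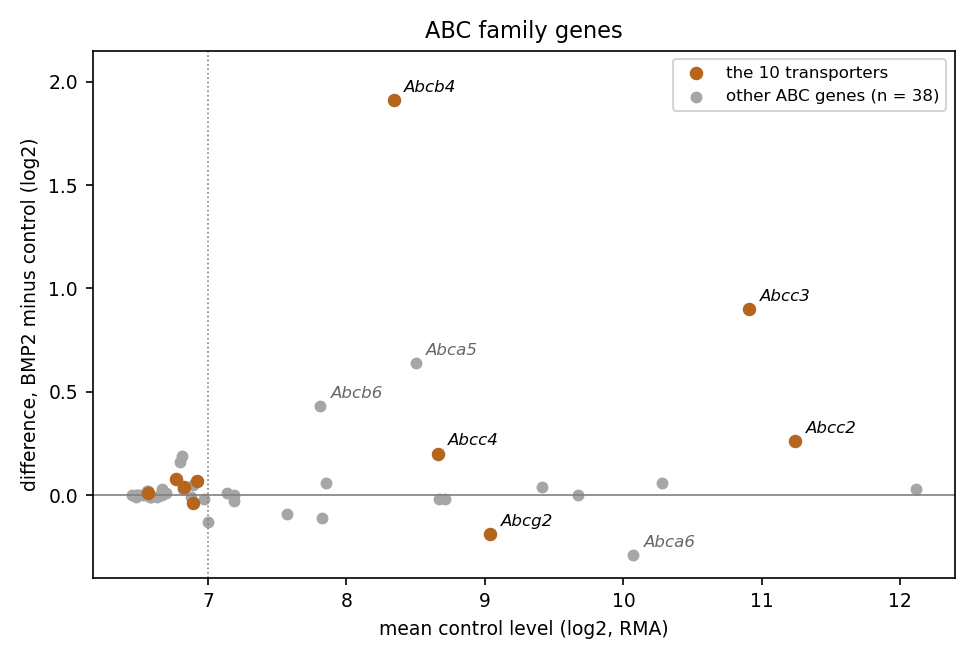
Difference of BMP2 minus control (log2, vertical axis) against the mean control level (log2, horizontal axis) for the 10 transporters (brown) and the other 38 genes of the family (grey), with a dotted line at 7. Abcb4 at 1.91 and Abcc3 at 0.90 lie above every other gene of the family, of which Abca5 at 0.64 is the next.

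Proteins that work beside the transporters were described from lists of genes, chosen by function with earlier results of these data known. Over all probe sets 0.616% were called higher, 0.573% lower and 12.5% had an unadjusted p under 0.05, and the counts of each list stand beside these shares. Of 7 canalicular proteins outside the ABC family 0 passed in limma (4 at an unadjusted p under 0.05, against that 12.5%), with a median difference of 0.05. Atp8b1, the phosphatidylserine flippase that acts with Abcb4 in keeping the canalicular membrane intact, differed by 0.11 ± 0.03 (limma adjusted p = 0.180). Tmem30a, the subunit that flippases need to leave the endoplasmic reticulum, differed by -0.09 ± 0.02 (limma adjusted p = 0.136). Aqp8, a canalicular water channel, differed by 0.81 ± 0.29 (limma adjusted p = 0.352, and 0.0481 with the replicate block), with pair differences of 0.63, 0.80 and 1.01. Its level was 8.81, 9.20 and 8.52 in BMP2 replicates 1, 2 and 3, against 8.18, 8.40 and 7.51 in control replicates 1, 2 and 3, so that the groups did not overlap.

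The basolateral uptake and efflux carriers were near the floor. All 8 measured carriers, among them Slc10a1, the bile salt uptake carrier NTCP, and Slco1b2, an organic anion carrier, had means under 7 in both groups. None of the 8 passed in limma and none had an unadjusted p under 0.05. Slc10a1 differed by 0.02 ± 0.01 (limma adjusted p = 0.675) and Slco2b1 by -0.01 ± 0.01 (0.906).

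Of 12 measured transcription factors that control transporter genes 1 rose (0.616% of all probe sets did), 0 fell and 11 did not pass. An unadjusted limma p under 0.05 was found for 5 of the 12, against 12.5% of all probe sets. Hnf4a, a liver nuclear receptor, was higher by 0.82 ± 0.06 (SE; 1.76-fold, limma adjusted p = 0.00968), at 12.48, 12.59 and 12.42 in BMP2 replicates 1, 2 and 3, against 11.76, 11.67 and 11.62 in control replicates 1, 2 and 3. It passed in 4 of 6 limma fits with 1 sample left out, and its highest adjusted p there was 0.0668, when BMP2 replicate 1 was missing. It did not pass without control replicate 2 or without replicate 3 either. Rxra, the partner of many nuclear receptors, differed by 0.28 ± 0.05 (limma adjusted p = 0.0912), and Ahr, the aryl hydrocarbon receptor, by 0.50 ± 0.09 (limma adjusted p = 0.0985, and 0.0481 with the replicate block). Nr1h4, the bile acid receptor FXR, differed by 0.10 ± 0.05 (limma adjusted p = 0.534), and Ppara, a known inducer of Abcb4 in mouse liver, stood at 6.83 to 6.84 in BMP2 samples and 6.82 to 6.87 in control samples, near the floor.

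Of 12 measured target genes of PPARA 1 rose (0.616% of all probe sets did), 0 fell and 11 did not pass. At an unadjusted limma p under 0.05 there were 7 of the 12, against 12.5% of all probe sets. Hadha, a mitochondrial fatty acid oxidation enzyme, was higher by 0.16 ± 0.02 (SE; limma adjusted p = 0.0460, and 0.0737 with the block). It passed in 0 of 6 fits with 1 sample left out, with limma adjusted p between 0.0521 and 0.180. Hadha also did not pass with an intensity trend (limma adjusted p = 0.104), with median centring (0.0592) or without replicate 3 (0.0955). It passed with quantile normalization, with probe sets above the median level and with named probe sets. With the block Vnn1, a pantetheinase, was lower (-0.63 with a blocked SE of 0.01, limma adjusted p = 0.0104 against 0.0797 without the block). Acadm, an acyl-CoA dehydrogenase, was higher (0.34 with a blocked SE of 0.03, limma adjusted p = 0.0374 against 0.165 without the block). Of the 12 genes 5 had means under 7 in both groups, including Cyp4a10 and Cyp4a14.

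Of 13 measured genes listed for the canalicular membrane and its trafficking 0 rose, 1 fell (0.573% of all probe sets did) and 12 did not pass. Of these 13, 6 had an unadjusted limma p under 0.05, against 12.5% of all probe sets. Msn (moesin), which ties membranes to actin, was at 11.63, 11.51 and 11.66 in BMP2 replicates 1, 2 and 3, against 12.24, 12.16 and 12.21 in control replicates 1, 2 and 3. It fell by 0.60 on the log2 scale (SE 0.05, limma adjusted p = 0.0129), and it passed in 2 of 6 fits with 1 sample left out, those without BMP2 replicate 2 or 3. Its highest limma adjusted p in these fits was 0.0732, when BMP2 replicate 1 was missing. Which cells in these bulk samples gave the Msn signal was not tested. Rdx (radixin), the related linker of the canalicular membrane that holds Abcc2 there, had the opposite sign, at 11.23, 11.39 and 11.03 in BMP2 replicates 1, 2 and 3, against 10.53, 10.58 and 10.62 in control replicates 1, 2 and 3. Its groups did not overlap, and it differed by 0.64 ± 0.09 (SE; limma adjusted p = 0.0602). Anpep, a canalicular aminopeptidase, differed by 0.33 ± 0.12 (limma adjusted p = 0.362, and 0.0221 with the block).

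Of 12 measured genes that supply biliary phospholipid and sterol 0 passed in limma (4 at an unadjusted p under 0.05, against 12.5% of all probe sets). Stard10, a phosphatidylcholine transfer protein, differed by 0.21 ± 0.06 (limma adjusted p = 0.203, and 0.0303 with the block), and Npc2, a sterol-binding protein, by -0.11 ± 0.03 (limma adjusted p = 0.181). Lpcat3, which remodels phosphatidylcholine, differed by 0.11 ± 0.04 (adjusted p = 0.393, and 0.0451 with the block). Pemt, which makes phosphatidylcholine in hepatocytes, differed by 0.07 ± 0.08. Across these 6 lists of functions 3 of 64 different genes passed, Hnf4a, Hadha and Msn, against 1.19% of all probe sets. With the replicate block 9 passed, 7 higher and 2 lower, against 3.32% of all probe sets. Of the 64 genes 46 lay above the median level of all probe sets, so these shares are not a matched background. Because earlier results were known when the lists were chosen, nothing is read from the counts of any list beside these shares.

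The genes whose values over the 6 samples were most like those of Abcb4 were found by Euclidean distance between log2 values centred on each gene's mean. They were Nrn1 (distance 0.46), a small neuronal surface protein, Rdh7 (0.61), a retinol dehydrogenase, Fmo1 (0.71), a flavin monooxygenase, Apom (0.73), an apolipoprotein of high-density lipoprotein, and A1cf (0.74), a cofactor of apolipoprotein B RNA editing. Among the members the nearest to Abcb4 was Abcc3, at 1.35, and the farthest Abcg2, at 2.72. Apom stood at 8.65, 8.94 and 8.31 in BMP2 replicates 1, 2 and 3, against 7.25, 7.53 and 7.11 in control replicates 1, 2 and 3. Rdh7 stood at 9.39, 9.91 and 9.02 in BMP2 replicates 1, 2 and 3, against 6.94, 7.42 and 6.82 in control replicates 1, 2 and 3. Both had the order of the replicate numbers as in Abcb4. Nrn1 and Fmo1 did not keep that order in control samples, and A1cf stood at 7.16 in each control sample. In control samples Nrn1 and A1cf varied less than Abcb4, with SDs of 0.05 and 0.00 against 0.35. These genes were picked for this likeness, so their differences are not tested here.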

How the data were processed

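Biotin-labelled RNA of 6 hepatocyte samples was measured on an Affymetrix array. The authors deposited log2 expression values made by RMA per the submitters' processing notes. The RMA version, probe annotation behind it and filtering are not given in the sources used here. Values were used without further normalization. Platform annotation named 20405 of 21115 probe sets, and 710 had no symbol. An array gives no counts, so precision is limited by the number of arrays, 3 in each group.

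The comparison used limma 3.58.1 under R 4.3.3 (two-sided moderated tests from eBayes), adjusted by Benjamini-Hochberg over all probe sets, with a threshold of 0.05. SEs are from this fit, without the block, unless called blocked. Replicate numbers were tested with the moderated F test. BMP2 and control samples with the same number shared their deviations from the group means (correlations 0.48, 0.58 and 0.61 for replicates 1, 2 and 3). The highest correlations with another number were 0.18, 0.18 and -0.26. Deviations of the 3 samples cancel out within a group, so these correlations are not independent of each other. The design names 3 mice, and the replicate numbers were treated as pairs. The sample titles give only a biological replicate number. That equal numbers mean the same mouse was inferred, and a shared preparation or array batch cannot be told apart from it. The block was fitted as an alternative, and blocked values are given where they change a call.

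The members, gene lists and the rule for named genes were chosen with earlier results of these data known. The rule took all members and neighbours, list genes past the threshold or otherwise the 2 with the smallest p, the 3 smallest p of the remaining family and the 5 genes most like Abcb4. Other genes named, among them those called only with the block, were chosen after their values were seen. List genes without a value were not analysed here. Alternatives were the block, an intensity trend, probe sets above the median level, quantile normalization, median centring, named probe sets and leaving out each sample. Scripts were tested on simulated data. Promoter sequences, gene order and chromosomes are RefSeq's on GRCm38.p6, and 9 of 10 members had a promoter window.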

Additional observations from a re-analysis of the deposited data

How the results depend on the processing

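Among the 129 values of the members' differences under all alternatives, 129 moved by less than 1 SD between replicates. Most of these could not have moved further. The block, the intensity trend, named probe sets and probe sets above the median level leave the estimated difference unchanged. Leaving out 1 of 3 samples in a group cannot shift it by 1 SD. The count of 129 therefore does not show that the differences are stable. Counts of calls moved more. The setting with probe sets above the median level tested fewer genes. It held 10557 probe sets, with 9 members, 22 genes of the remaining family, 46 list genes and 6 neighbours. Over all probe sets 251 passed, against 702 with the replicate block, 438 with an intensity trend, 449 with probe sets above the median level, 30 to 223 with 1 sample left out and 114 without replicate 3. Of the members 1 passed, against 2 with an intensity trend, 2 with probe sets above the median level, 2 with named probe sets, 0 in every fit with 1 sample left out and 0 without replicate 3. Of the remaining ABC family 0 passed, against 2 with the block, 3 with an intensity trend, 1 with probe sets above the median level, 0 to 2 with 1 sample left out and 1 without replicate 3. Of the related lists 3 genes passed, against 9 with the block, 7 with an intensity trend, 9 with probe sets above the median level, 0 to 3 with 1 sample left out and 0 without replicate 3. The count of neighbours that passed was 0 under every alternative. Between replicate numbers 6 probe sets passed, against 217 with an intensity trend, 146 with probe sets above the median level, 0 with quantile normalization, 0 with named probe sets, 0 with any 1 sample left out and 0 without replicate 3. Abcb4 was the 1 member that passed that test, with an intensity trend and with probe sets above the median level. Fits without 1 sample used no block and had fewer samples. The causes of the other shifts were not tested. The near-floor levels of 5 members limit what their differences can show.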
